A study of Mus musculus with 6 samples.

Results

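Embryoid bodies (EBs) after 4 days in retinoic acid (RA) were compared with EBs from the day on which RA was added. The samples were those titled day 0 (2 arrays) and day 4 (2 arrays), 4 of the 6 arrays of the series. Each gene was represented by probe sets that carry only its symbol, and where it had several, by the brightest over all 6 arrays, which gave 19938 genes from a table of 35557 probe sets. The other 2 arrays, from day 3, entered the fit for the estimate of the spread, and day 3 values are given where they bear on a result.

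The source of every sample was R1, an established line of mouse embryonic stem (ES) cells, seeded at 35000 cells per ml and grown as floating EBs with no leukaemia inhibitory factor. The EBs were 4 days old when RA was added at 2 μM, so day 0 stands for EBs of that age without RA and day 4 for EBs 4 days older that had been in RA throughout. The study used such EBs as the source of RNA for a benchmark of sequencing tools, and used the arrays to find genes below detection. The arrays were Affymetrix Mouse Gene 1.0 ST, and the values are log2 intensities from Robust Multichip Average (RMA). Untreated EBs of matching age were not analysed here, and effects of RA and of time cannot be told apart in any result. In such mixed bodies, fewer cells of a type and less RNA per cell cannot be told apart either. Arrays of a day carry numbers in the labels but no word of separate cultures. The study describes biological replicates of its day 0 and day 4 RNA but does not say whether the arrays used them. The p-values therefore rest on a spread between arrays that may be technical. The labels call all samples embryonic stem cells. Pou5f1, which encodes the stem cell factor Oct4, had values of 10.27 and 10.20 on the day 0 arrays and of 6.16 and 6.13 on the day 4 arrays. The day 0 arrays also carried high signal of the primitive streak genes Mixl1 (mean of 12.45) and Eomes (mean of 10.64). The label was therefore read as the origin of all samples and not as their state.

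RA is made from vitamin A inside cells and binds nuclear receptors (RARs) that sit with their RXR partners on short repeated DNA motifs in the control regions of target genes. In the embryo it patterns the hindbrain and trunk, and it takes part in the formation of the heart, kidney, limb and the mesothelium, the cell layer that lines body cavities and covers organs. EBs left without leukaemia inhibitory factor pass through a stage that resembles the primitive streak, at which nodal, Wnt and FGF signals set aside mesoderm and endoderm, and the fate of these cells depends on which signals they meet next.

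The 2 arrays of a day were close to each other, with a Pearson correlation of 0.999 on both days over 19938 genes, whereas arrays of day 0 and day 4 correlated by 0.953 to 0.955. Genes are no independent replicates, so these values are descriptions. At an adjusted p of 0.05 or below (limma, Benjamini-Hochberg over all genes), 10260 of 19938 genes differed, 51.5% of those tested, with 5154 higher (25.9%) and 5106 lower (25.6%) at day 4. Most of these changes were small, with a median size of 0.52 on the log2 scale. At least 2-fold changes were found for 1160 genes that were higher (5.82%) and 920 that were lower (4.61%), although centring on the median of the genes tested turned these counts to 929 and 1223. In the deposited scaling the larger changes were more often rises: 351 genes rose (1.76%) and 184 fell (0.923%) at least 4-fold, 117 (0.587%) and 44 (0.221%) at least 8-fold, 47 (0.236%) and 14 (0.0702%) at least 16-fold, and 13 (0.0652%) and 4 (0.0201%) at least 32-fold. Genes with a mean below 6 on both days, a range in which RMA compresses differences, numbered 5896 and gave 703 calls (11.9%), against 9557 calls among the 14042 brighter genes (68.1%). In 52 genes the mean was below 6 at day 0 and at least 8 at day 4, and in 19 it was at least 8 at day 0 and below 6 at day 4. The direction of small changes was not settled. Centring the arrays on the median of all probe sets moved the median gene up by 0.11 and gave 7132 higher and 3915 lower, whereas centring on the median of the genes tested moved it by −0.15 and gave 3781 higher and 8521 lower. Cyclic loess gave 5707 and 4742. In the deposited scaling 50.2% of the calls were higher, and in these 3 alternatives 64.6%, 30.7% and 54.6%.

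The genes with the largest changes lay far outside these differences in scaling. They were ranked among called genes whose arrays of day 0 and day 4 did not overlap. Predicted and clone-named genes, olfactory and vomeronasal receptors, and microRNA and small nucleolar RNA genes were left out of the ranking. In the 30 largest rises the change was 4.31 to 5.89 (log2), the lowest day 4 array lay at least 4.11 above the highest day 0 array, and no adjusted p was above 1.35e-06 (limma). In the 30 largest falls the change was 3.33 to 5.52 in size, the gap was at least 3.05, and no adjusted p was above 1.35e-05. In all 60 genes the call and the direction were the same in each of 15 alternative analyses. The genes were picked on these same arrays for large called changes, so these gaps, p-values and this agreement are descriptions. The mean was below 6 at day 0 in 9 of the rising genes and at day 4 in 7 of the falling ones, the range in which differences are compressed.

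**Figure D1:**
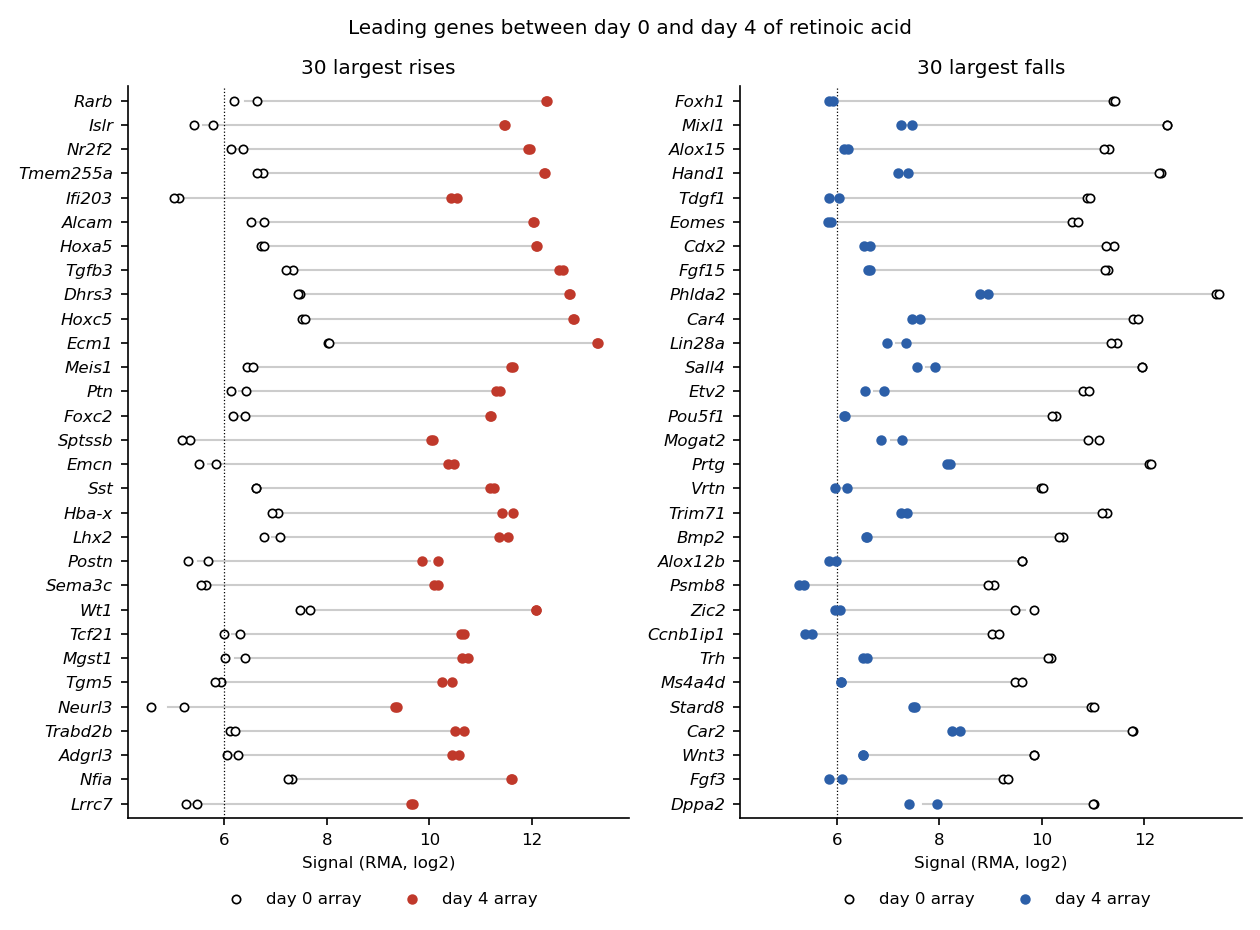
The 30 genes with the largest rise (left) and the 30 with the largest fall (right) after the exclusions given in the text, 1 row per gene. The horizontal axis gives the signal (RMA, log2), open points are the 2 day 0 arrays, filled points the 2 day 4 arrays, the grey line joins the means and the dotted line marks 6; in every row the arrays of the 2 days are separated by at least 3.05.

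Rarb, which encodes retinoic acid receptor beta, had the largest rise of the ranked genes. Its values were 6.18 and 6.63 on the day 0 arrays and 12.30 and 12.28 on the day 4 arrays, a change of 5.89 (SE 0.13). The other leading transcription factor genes are known from mesoderm and from patterning of the trunk. Meis1, which encodes a partner of Hox proteins, went from 6.44 and 6.56 to 11.60 and 11.63, a change of 5.12 (SE 0.06). Foxc2, a forkhead gene of paraxial mesoderm and vessels, went from 6.16 and 6.40 to 11.20 and 11.19, a change of 4.91 (SE 0.08). The Hox genes Hoxa5 (5.35) and Hoxc5 (5.27), which set position along the trunk, rose as well. Nr2f2, an orphan nuclear receptor gene of mesenchyme and veins, rose by 5.69. Lhx2, which is used in limb and forebrain, rose by 4.53, Nfia, which encodes a nuclear factor of glial and kidney development, by 4.33, Wt1 by 4.52 and Tcf21 by 4.50. The second probe set of Nfia rose by 3.97. Wt1 and Tcf21 mark mesothelium, epicardium and the cells beneath it.

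The RAR motif in these promoters was looked up because Rarb is the textbook RA target. A DR5 element, the repeat that RARs bind best, was searched as a pair of half-sites with 5 bases between them, on both strands. A half-site was AGGTCA, or one of the variants AGTTCA and also GGTTCA and further GGGTCA. The search was made in RefSeq promoters (GRCm38.p6, from 250 bases before to 50 after the start). Of 32851 promoters in the table, 32 held it (0.0974%), and of 15614 genes on the array with a promoter, 11 did (0.0704%). Among the 30 largest rises it was found in 1 of 25 genes with a promoter, Rarb, and among the 30 largest falls in 0 of 19. The stretches of Rarb (chr14:16575477-16575566, minus strand) and Cyp26a1 (chr19:37697718-37697807, plus strand), a gene for an enzyme that breaks down RA, are shown because they hold the motif near the start of 2 RA pathway genes that changed in opposite directions. Both read 5′ to 3′ along the gene, with the element in capitals.
Rarb: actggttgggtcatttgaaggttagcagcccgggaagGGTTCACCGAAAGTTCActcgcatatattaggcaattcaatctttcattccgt
Cyp26a1: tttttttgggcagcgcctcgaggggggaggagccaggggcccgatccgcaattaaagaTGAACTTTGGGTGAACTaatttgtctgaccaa
In Rarb the element lay 53 to 37 bases before the start on the strand of the gene, and in Cyp26a1 it lay 32 to 16 bases before the start on the other strand. Cyp26a1 had a mean of 10.58 at day 0 and 8.26 at day 4, a fall of 2.32 on the log2 scale (SE 0.08), whereas its relative Cyp26b1 rose from 7.17 to 10.33, a change of 3.16 (SE 0.13). Of the other genes with the motif, which are named for it whatever their change, the embryonic globin gene Hbb-y rose by 4.25 and the cytokine gene Tnfsf13b by 3.59, Ppbp rose by 0.46, a call lost in 8 alternatives, and Blvrb by 0.32, Prokr2 fell by 0.75, and Syndig1, Prss27, Gm1043 and Cfap45 did not pass the test. A match describes the letters in this window and does not show a bound site.

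Among the rest of the largest rises were secreted proteins and proteins of the cell surface. Alcam, an adhesion molecule of the immunoglobulin family, rose by 5.39 (SE 0.09). Ecm1, which encodes an extracellular matrix protein, went from 8.03 and 8.05 to 13.27 and 13.29, a change of 5.24 (SE 0.05). Ptn, the gene of the heparin-binding growth factor pleiotrophin, rose by 5.07 (SE 0.10) and the matricellular gene Postn by 4.53 (SE 0.15). Sema3c, a guidance ligand of the outflow tract and nerves, rose by 4.52 (SE 0.07). The sialomucin gene of endothelium, Emcn, rose by 4.75, the adhesion receptor gene Adgrl3 by 4.36 and the hormone gene Sst (somatostatin) by 4.60. The values of Sst were 6.62 and 6.62 at day 0 and 11.26 and 11.18 at day 4. Hba-x, the embryonic alpha-like globin gene of primitive red cells, rose by 4.54 (SE 0.09). Dhrs3, an enzyme that turns retinal back into retinol and so limits the making of RA, went from 7.48 and 7.43 to 12.72 and 12.74, a change of 5.27 (SE 0.05). Other genes of the set were Islr (5.88), Tmem255a (5.56), Sptssb (4.80), a subunit of the enzyme that starts sphingolipid synthesis, Mgst1 (4.49), a glutathione transferase, Tgm5 (4.46), a transglutaminase, Neurl3 (4.46), Trabd2b (4.44, second probe set 3.56) and Lrrc7 (4.31).

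The largest falls included genes of the streak stage and of early mesoderm, Mixl1 (−5.09), Eomes (−4.78) and Cdx2 (−4.75), and Hand1 (−5.02), a gene of heart, limb and extraembryonic mesoderm. Mixl1 went from 12.44 and 12.45 to 7.24 and 7.47. Beside these stood RNA-binding proteins, transcription factors and ligands of the early embryo. Lin28a, which blocks the maturation of let-7 microRNAs, went from 11.46 and 11.35 to 6.97 and 7.35, a change of −4.25 on the log2 scale (SE 0.13). Trim71, a target of let-7, went from 11.27 and 11.17 to 7.37 and 7.25, a change of −3.91 (SE 0.08). Etv2, the master gene of early blood and endothelial precursors, fell by 4.13 (SE 0.17). The stem cell transcription factor gene Sall4 fell by 4.21, Zic2 by 3.65 and Vrtn, which is linked to vertebral number, by 3.94. Among ligands, Bmp2 fell by 3.79, Wnt3, which is needed to form the primitive streak, by 3.35, Fgf3 by 3.33, and the thyrotropin-releasing hormone gene Trh changed by −3.60. The values of Bmp2 were 10.41 and 10.34 at day 0 and 6.58 and 6.57 at day 4. Prtg, a surface protein of mesoderm and neural tube, fell by 3.94, and Psmb8, a subunit of the immunoproteasome, by 3.70. Enzymes and other genes were Mogat2 (−3.95) of lipid synthesis, the lipoxygenases Alox15 (−5.08) and Alox12b (−3.70), the carbonic anhydrases Car4 (−4.28) and Car2 (−3.45), Ccnb1ip1 (−3.65), Ms4a4d (−3.48), Stard8 (−3.48) and Dppa2 (−3.33, second probe set −2.57).

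Most of these changes were already present at day 3, when the rising genes had changed by 3.21 to 6.11 and the falling ones by −5.94 to −1.80. The changes at day 3 and day 4 share the day 0 arrays, so the direct contrast of day 4 with day 3 was tested. In that contrast 28.1% of all genes were called, and 0.767% were called with a change of at least 2-fold. Of the 30 rises, 18 were called, 14 of them further from day 0 at day 4 and 4 nearer to it, and of the 30 falls, 14 were called, 10 further and 4 nearer. At least 2-fold differences between day 3 and day 4 were found for 5 of the rises and 2 of the falls.

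Lists of genes were then compared by counts of members that passed the test, beside 25.9% higher and 25.6% lower among all genes and a median change of 0.00. The lists were chosen with earlier results of these data known and serve as descriptions. Among them the most uniform rise was that of mesothelium and epicardium, where 17 of 18 measured genes rose and 0 fell, with a median change of 2.22. Against a change of at least 1.2-fold, 15 of the 18 were called higher. After Wt1 and Tcf21, the largest rises were those of Upk3b, a uroplakin of the mesothelial surface, which went from 7.03 and 7.05 to 11.17 and 11.24 (4.17, SE 0.08), and of Bnc1, a zinc finger gene of mesothelium, which went from 7.73 and 7.31 to 11.58 and 11.51 (4.03, SE 0.13). In both genes the days were separated by more than 3 units. Msln, which encodes mesothelin and is a marker of mature mesothelium, did not pass (0.20, adjusted p = 0.233, limma), with means of 5.56 and 5.76.

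Lateral plate, limb and body wall mesoderm gave 13 of 19 genes higher and 4 lower. Lhx2, Osr1 (3.90), Tbx5 (3.77) and Hic1 (3.77) rose most. Tbx5, the T-box gene of heart and forelimb, went from 5.88 and 5.91 to 9.67 and 9.67. The homeobox genes Msx2 and Msx1, targets of BMP signals, fell by 2.82 and 2.63, Foxf2 by 1.07 and Tbx4, the hindlimb counterpart of Tbx5, by 0.30, a call that was lost under median centring and 4 other alternatives. In Msx2 the values were 11.07 and 11.13 at day 0 and 8.24 and 8.31 at day 4. Shox2 (0.09) and Twist2 (−0.11) did not pass. The list of intermediate mesoderm and urogenital ridge was mixed, with 8 of 18 higher and 6 lower. The rises were led by Wt1, Osr1, Emx2 (2.71) and the ligand gene Npnt (1.31), and the falls by Sall1 (−3.19), Cited1 (−1.91), Gata3 (−1.68) and Ret (−1.27). Sall1 and Cited1 mark kidney progenitors, and Gata3 and Ret the duct that induces them. Nr5a1, the steroidogenic factor gene of gonad and adrenal gland, did not pass (−0.01, with means of 6.13 on both days), and neither did Pax8 (0.13).

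Other lists of mesodermal derivatives did not move one way. In smooth muscle and pericytes 6 of 19 genes rose and 7 fell. Kcnj8, a potassium channel gene of pericytes, rose by 2.96, Actg2 by 1.86 and Synpo2 by 1.49, whereas Tpm1 fell by 1.02, Cnn1 by 0.98 and Tagln by 0.85, and Myh11, the defining myosin of mature smooth muscle, did not pass (0.02). In cartilage and bone precursors 6 of 15 rose and 4 fell, led by Sox9 (1.33) and Sox6 (1.10) among the rises and by Alpl (−2.67), an alkaline phosphatase that stem cells also express, among the falls. The regulators of the epithelial to mesenchymal transition were split as well, 6 of 13 higher and 5 lower. Prrx1 (2.02), Zeb1 (1.52), Snai2 (1.16) and Twist1 (1.15) rose, and Fn1 (−2.01), Lef1 (−1.93), Zeb2 (−1.11) and Snai1 (−0.78) fell. Within the Zeb and Snai pairs, Zeb1 and Snai2 thus rose where Zeb2 and Snai1 fell.

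Of 28 genes of epithelial junctions and keratins, 19 fell and 1 rose, with a median of −0.51. The full families by symbol did not show this: of 23 claudins 7 rose and 1 fell, led by the endothelial claudin gene Cldn5 (1.53) and Cldn1 (0.80), and of 52 keratins 10 rose and 6 fell, with rises of Krt15, Krt7 (0.60) and Krt20 (0.60) and falls of Krt8 (−1.61) and Krt18 (−1.48), the keratins of simple epithelia. With the genes tested centred, the claudins gave 4 higher and 5 lower and the keratins 5 and 16. St14, which encodes the protease matriptase, fell by 2.30 and Cdh1, the gene of E-cadherin, by 2.25, from 10.55 and 10.49 to 8.12 and 8.43. Dsp, the desmosome linker (−1.96), and the protease inhibitor gene Spint1 (−1.79) fell as well. The call of the only rise, Krt19 (0.25), was lost in 5 of the alternatives. Genes of primordial germ cells also fell, 8 of 10 with a median of −1.08. The largest falls were those of Tfap2c (−1.94), Prdm1 (−1.87), Prdm14 (−1.71) and Dnd1 (−1.18). These 4 are regulators of germ cell fate or RNA that epiblast or stem cells can also express, and Dazl (0.12) and Nanos3 (−0.13) did not pass.

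Markers of further cell types that EBs can hold were examined. Of 18 genes of hindbrain and spinal cord patterning, 2 were called higher and 3 lower, Epha4 (0.37) and Lbx1 (0.18) against Isl1 (−0.76), Egr2 (−0.30) and Pou4f1 (−0.15), and 13 did not pass, among them Nkx2-2 (0.00) and Pax7 (−0.02). The call was lost in 12 alternatives for Pou4f1, in 9 for Lbx1 and in 5 for Egr2. The numbers higher and lower went to 6 and 1 under median centring. Epha4 had stood 1.48 above day 0 at day 3, and its change from day 3 to day 4 was −1.12 (adjusted p = 0.000141, limma). Of 17 genes of definitive endoderm and foregut, 4 rose and 6 fell. Shh rose by 0.72 and Onecut2 by 0.60, and the falls were led by Hhex (−2.56) and Prox1 (−1.20). The liver and foregut gene Hhex went from 8.60 and 8.59 to 6.03 and 6.04. Of 9 genes of the notochord and node, 1 rose, Shh, and 1 fell, Nog (−0.87). Of 14 genes of macrophages and microglia, 10 had means below 6 on both days, Cx3cr1 rose by 0.23, and Cd68 (−1.62), Laptm5 (−0.91) and Spi1 (−0.58) fell. The receptor gene that defines the lineage, Csf1r, did not pass (0.00) and is named here after its value was seen.

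**Figure D2:**
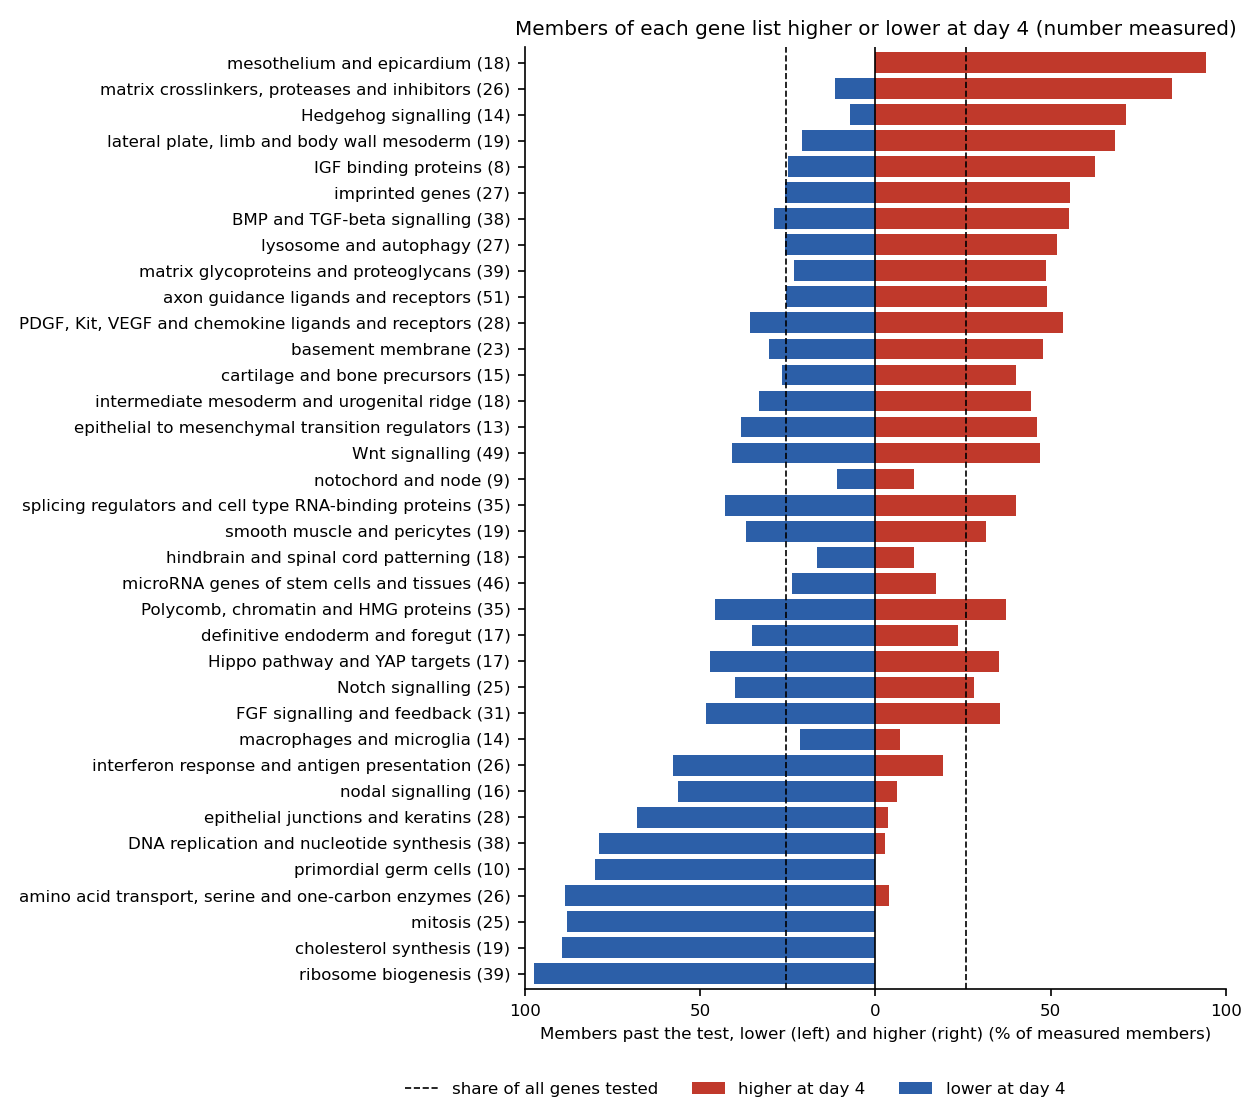
Share of the measured members of each gene list that were called higher (right, red) or lower (left, blue) at day 4, in percent, with the number measured in parentheses. The dashed lines are the shares of all 19938 genes, 25.9% higher and 25.6% lower; mesothelium and epicardium stands at the top with 94.4% higher, and ribosome biogenesis at the bottom with 97.4% lower.

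Genes that shape the extracellular matrix changed in a selective way. Enzymes that crosslink or cut the matrix, with their inhibitors, rose in 22 of 26 cases and fell in 3, with a median change of 1.22. The metalloproteinase gene Adamts1 rose by 2.90, the lysyl oxidases Loxl1 and Lox, which crosslink collagen and elastin, by 2.86 and 2.72, and the inhibitor gene Timp3 by 2.38. Lox had values of 4.69 and 5.37 at day 0 and of 7.78 and 7.71 at day 4. The gelatinase gene Mmp9 went the other way, from 8.66 and 8.69 to 5.76 and 5.86, a change of −2.87 (SE 0.06), and Loxl4 fell by 2.07, with −1.87 in its second probe set. Matrix glycoproteins and proteoglycans gave 19 of 39 higher and 9 lower. Ecm1, Postn, Dcn (3.15), a small proteoglycan of connective tissue, and Ltbp1 (2.29), which stores latent TGF-beta, rose most. Bgn, the close relative of Dcn, fell by 2.32, the hyaluronan synthase gene Has2 by 2.18 and Fbln2 by 1.21. Dcn went from 5.46 and 4.92 to 8.39 and 8.28, and Bgn from 9.42 and 9.34 to 7.02 and 7.09.

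In the basement membrane 11 of 23 genes rose and 7 fell. The rises were led by Fras1 (2.23), Npnt (1.31), Frem2 (1.09) and Smoc1 (1.09), where Fras1 and Frem2 encode partners of 1 adhesion complex. The falls were led by the laminin chain gene Lama4 (−1.75), the perlecan gene Hspg2 (−1.02), Nid1 (−0.65) and the laminin gene Lama5 (−0.62). Of 44 collagen genes 18 rose and 4 fell, with Col3a1 (2.28) and Col1a2 (1.89), fibrillar collagens of connective tissue, among the rises and the basement membrane collagens Col4a1 (−0.82) and Col4a2 (−0.79) among the falls. The other 2 falls were those of fibrillar chains, Col5a1 (−0.40) and Col1a1 (−0.16), the partner chain of Col1a2, whose call was lost in 10 of the alternatives. The number of collagens higher went to 32 under median centring and to 14 when the genes tested were centred. Integrins, the receptors of the matrix, gave 9 of 27 higher and 4 lower, with rises of Itga8 (2.01), which binds the product of Npnt, and Itgb3 (1.81), and falls of Itga4 (−1.29) and Itga6 (−1.06).

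Signalling genes were examined by pathway, since nodal, FGF, Wnt and BMP signals direct cells of the primitive streak stage. Nodal signalling fell in 9 of 16 genes and rose in 1. After the transcription factor gene Foxh1 (−5.52) and the co-receptor gene Tdgf1 (−4.97), the largest falls were those of the secreted inhibitors Lefty2, from 7.57 and 7.92 to 4.79 and 4.91 (−2.90, SE 0.13), and Lefty1, from 8.03 and 7.58 to 5.16 and 5.43 (−2.51, SE 0.15). These inhibitors are themselves targets of the pathway. Smad3, which passes on the signal and that of TGF-beta, rose by 1.05 (SE 0.06), and the receptor gene Acvr2a (0.01) and Cer1 (−0.01) did not pass.

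FGF signalling and its feedback genes gave 15 of 31 lower and 11 higher, of which 11 and 2 changed at least 2-fold. Fgf15 (−4.64) and Fgf3 (−3.33) were the ligands that fell most, and the feedback genes Dusp4 (−3.17), a phosphatase that turns off ERK, and Spry4 (−2.51), an inhibitor of the receptor pathway, fell too. Dusp4 had values of 11.41 and 11.27 at day 0 and of 8.24 and 8.10 at day 4. Fgf9, a ligand made by mesothelium and epicardium, rose by 1.55 and Fgf20 by 1.03. The receptor gene Fgfr1 did not pass (−0.04).

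BMP and TGF-beta signalling gave 21 of 38 higher and 11 lower. Besides Tgfb3 (5.29), the ligand genes Gdf6 (3.00) and Gdf10 (2.18) and the signal transducer gene Smad9 (2.42) rose, whereas Bmp2 (−3.79), the activin antagonist gene Fst (−2.37), Tgfb1 (−1.79) and Bmp4 (−1.58) fell. Ligands of the TGF-beta family thus went in both directions. Inhbb (0.03) and Id4 (0.07) did not pass. Gdf6 went from 6.94 and 6.83 to 9.98 and 9.79, and its rise of 1.33 between day 3 and day 4 made up much of the change.

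Wnt signalling was split, with 23 of 49 genes higher and 20 lower, of which 14 and 11 changed at least 2-fold. The rises were led by Sfrp1, a secreted inhibitor (4.07), the ligand gene Wnt2b (3.30), Rspo1, an amplifier of Wnt signals (3.13), and the receptor gene Ror1 (2.82). Sfrp1 had values of 9.22 and 9.11 at day 0 and of 13.27 and 13.19 at day 4. The falls were led by Wnt3 (−3.35), the receptor gene Fzd10 (−3.07), Lgr5 (−2.43), which encodes a receptor for R-spondins and is a target of the pathway, and its transcription factor gene Lef1 (−1.93). Wnt7b (0.01) and Fzd5 (−0.02) did not pass.

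Hedgehog signalling gave 10 of 14 genes higher and 1 lower, with a median change of 0.53. The co-receptor gene Gas1 rose from 8.47 and 8.58 to 11.67 and 11.64 (3.13, SE 0.06), Gli1, a transcription factor gene that the pathway switches on, by 1.55 (SE 0.12), the co-receptor gene Boc by 1.41 and the inhibitor gene Hhip by 0.82. The only fall, that of Sufu (−0.17), was not called in 10 of the alternatives. Notch signalling gave 7 of 25 higher and 10 lower. Maml2, a co-activator gene, rose by 2.75, but by 0.51 in its second probe set. The ligand gene Dll4 (2.06) and the target gene Hey1 (1.59) rose, and the ligand gene Dll3 (−2.55), the target gene Hey2 (−2.12) and the receptor gene Notch1 (−1.77) fell.

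Of ligands and receptors of the PDGF, Kit, VEGF and chemokine families, 15 of 28 rose and 10 fell. Ligands that act on vessels and mesenchyme led the rises, with Ptn (5.07), Angpt1 (3.68), Angpt2 (2.63) and Pdgfc (2.36). The falls were led by Pdgfb (−1.77), the angiopoietin receptor gene Tek (−1.14), Kit (−1.05) and the VEGF receptor gene Kdr (−1.04). The values of Angpt1 were 5.76 and 5.23 at day 0 and 9.23 and 9.13 at day 4, so the ligand rose while its receptor Tek fell. Of 8 binding proteins of insulin-like growth factors, 5 rose and 2 fell, led by Igfbp5 (3.76), Igfbp7 (2.46) and Igfbp6 (2.36) against Igfbp2 (−0.61) and Igfbpl1 (−0.57). Guidance ligands and receptors, which steer axons, vessels and mesenchyme, gave 25 of 51 higher and 13 lower. Sema3c (4.52), the ephrin receptor genes Epha3 (3.68) and Epha7 (3.13) and Plxnc1 (2.01) rose most, and Nrp2 (−1.72) and Sema5a (−1.48) fell most. In the Hippo pathway 6 of 17 rose and 8 fell, with Axl (2.40), a receptor kinase gene, as the largest rise, Amot (−3.30), a partner of the effector YAP, as the largest fall, and Yap1 itself not past the test (−0.03). Amot went from 11.91 and 12.03 to 8.70 and 8.64.

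**Figure D3:**
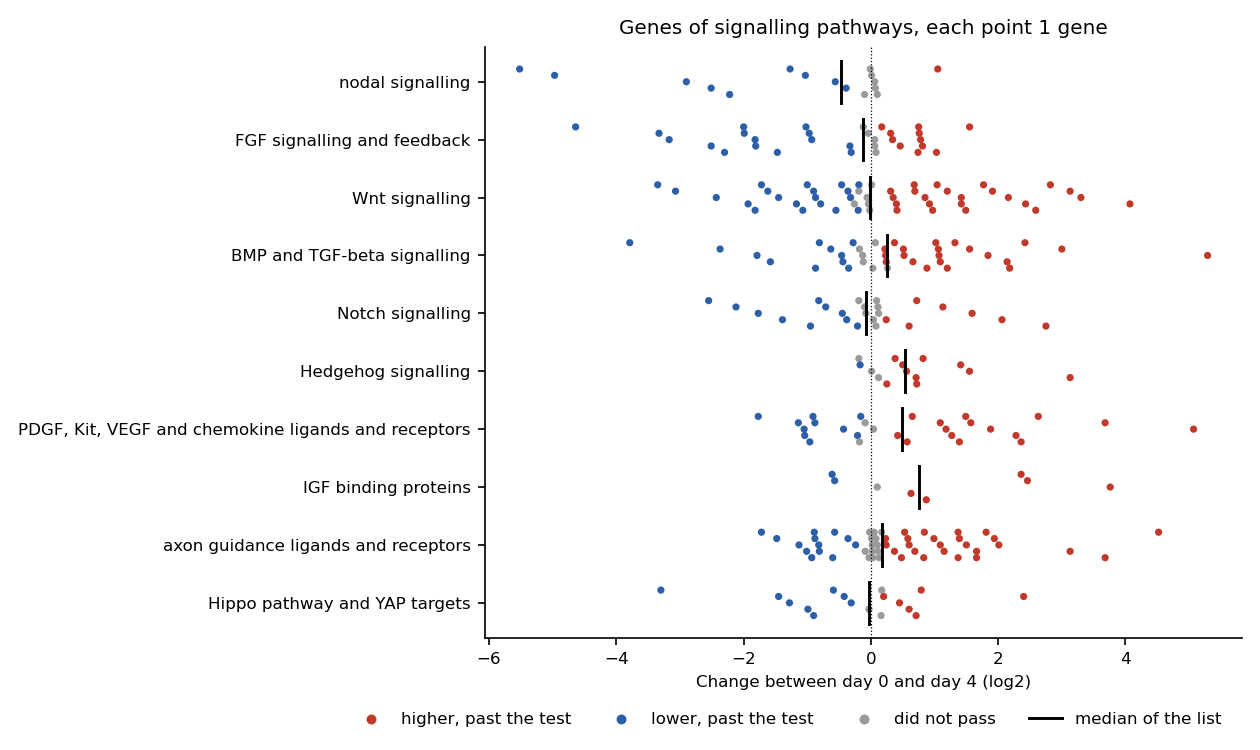
Change between day 0 and day 4 (log2, horizontal axis) of every measured gene in 10 signalling lists. Each point is 1 gene, red where it was called higher, blue where called lower and grey where it did not pass, and the black bar is the median of the list; nodal signalling reaches from −5.52 to 1.05, and Hedgehog signalling lies mostly to the right of 0 with a median of 0.53.

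Genes that serve growth fell together. In ribosome biogenesis 38 of 39 genes fell and 0 rose, with a median of −0.99. The largest falls were those of Rrp12 (−1.85), from 9.62 and 9.66 to 7.74 and 7.84, Utp20 (−1.84), Heatr1 (−1.84) and Ddx21 (−1.67), which encode factors of pre-rRNA synthesis and processing. Ubtf, a factor that holds rRNA genes open, was the only member that did not pass (0.13). Under both centrings and cyclic loess 37 or 38 of the genes fell. Of 51 genes of small nucleolar RNAs, which guide the modification of rRNA, 35 fell and 0 rose, with a median of −0.51, led by Snord14e (−1.90), Snord16a (−1.76), Snord95 (−1.73) and Snora75 (−1.68). Nearly all of these RNAs are cut from introns of other genes. Unnamed probe sets also fell at day 4: over the 6627 of them in the run with the lowest identifiers the median was 6.08 and 6.11 on the day 0 arrays, 6.26 and 6.14 on the day 3 arrays and 5.55 and 5.51 on the day 4 arrays, and its part in the fall of the small RNAs was not tested. All 20 measured nucleoporin genes fell, with a median of −0.73, led by Nup62cl (−2.65), Nup160 (−1.19), Nup107 (−1.03) and Nup214 (−0.99). The number was 16 under median centring.

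Further lists gave mostly falls too. Of 26 genes of amino acid transport, serine and one-carbon metabolism 23 fell and 1 rose, with a median of −0.76. Gldc, the glycine cleavage enzyme of stem cells, fell by 2.68, and the transporter genes Slc1a5 (−1.58) and Slc7a5 (−1.58) and the folate enzyme gene Mthfd1 (−1.57) followed. Gldc went from 10.30 and 10.24 to 7.54 and 7.64. Of 19 genes of cholesterol synthesis, 17 fell and 0 rose, with a median of −0.52, led by Idi1 (−1.33, second probe set −1.29), Lss (−0.96), Ebp (−0.89) and Dhcr7 (−0.82). Of 30 aminoacyl-tRNA synthetases 21 fell and 5 rose, of 49 translation initiation factors 30 fell and 5 rose, and of 9 chaperonin subunits 8 fell. These last changes were small, with medians of −0.37, −0.26 and −0.34.

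Genes of the cell cycle were examined next. In DNA replication and nucleotide synthesis 30 of 38 genes fell and 1 rose, with a median of −0.40, and in mitosis 22 of 25 fell and 0 rose, with a median of −0.49. Orc1, a subunit of the origin recognition complex, fell by 1.83, Mcm10 by 1.23 and Cdc6 by 1.06. Among mitotic genes Cenpe (−1.14), Anln (−0.83), Ttk (−0.77) and Birc5 (−0.76) fell most, and Aurkb (−0.07) and Ccnb2 (−0.10) did not pass. Against a change of at least 1.2-fold, 15 genes of replication and 15 of mitosis were still called lower, and 35 of ribosome biogenesis.

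Cytosolic ribosomal proteins and the respiratory chain stood apart from these lists. Of 59 ribosomal protein genes 5 were called higher and 7 lower, with a median of −0.02, and of 81 respiratory chain subunits 32 were called higher and 6 lower, with a median of 0.12. Both depended on the scaling: when the genes tested were centred, 32 ribosomal protein genes were lower and 1 higher, and 14 respiratory subunits were higher and 18 lower. Lysosome and autophagy genes gave 14 of 27 higher and 7 lower, led by the protease gene Ctsb (1.05), the lipase gene Lipa (0.92) and Gabarapl1 (0.77). With the genes tested centred, 10 were higher and 10 lower.

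The letters CACGTG, the E-box bound by Myc family proteins and by the lysosomal regulator Tfeb, were counted in the same promoters. They were found in 2349 of 32851 promoters (7.15%) and in 1483 of the 15614 genes on the array with a promoter (9.50%). In ribosome biogenesis 8 of 34 genes with a promoter held them (23.5%), in translation initiation factors 9 of 39 (23.1%), in cholesterol synthesis 4 of 15 (26.7%) and in lysosome and autophagy 8 of 22 (36.4%), and among the 30 largest rises and the 30 largest falls 0 of 25 and 0 of 19. Other lists that fell lay on both sides of the share of all genes. Above it were, among others, DNA replication and nucleotide synthesis with 6 of 31 (19.4%), epithelial junctions and keratins with 3 of 16 (18.8%) and nucleoporins with 3 of 17 (17.6%). Aminoacyl-tRNA synthetases had 3 of 21 (14.3%) and genes of amino acid transport, serine and one-carbon metabolism 3 of 22 (13.6%). Near or below that share were mitosis with 2 of 20, proteasome subunits with 3 of 32 (9.38%) and chaperonin subunits with 0 of 8. Interferon response and antigen presentation had 1 of 24 (4.17%). Hox genes, most of which rose, had 5 of 21 (23.8%). High shares thus occurred in lists of either direction, and no test was made.

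**Figure D4:**
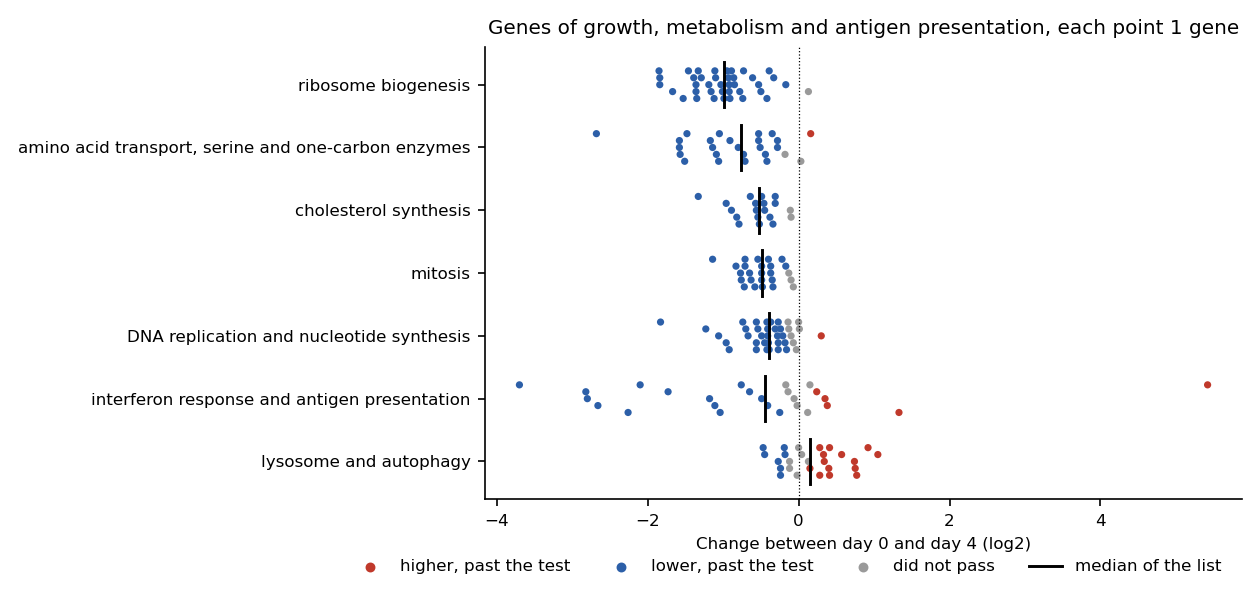
Change between day 0 and day 4 (log2, horizontal axis) of every measured gene in 7 lists of growth, metabolism and antigen presentation, with colours and bars as in the plot of signalling pathways. Ribosome biogenesis lies between −1.85 and 0.13 around a median of −0.99, and the list of interferon response and antigen presentation runs from −3.70 to 5.42.

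In the list of interferon response and antigen presentation 15 of 26 genes fell and 5 rose, with a median of −0.45. The immunoproteasome subunit genes Psmb8 and Psmb10 fell by 3.70 and 2.82, and Oasl2 by 2.80. Psmb8 had values of 9.06 and 8.94 at day 0 and of 5.25 and 5.35 at day 4. The transcription factor gene Irf1, which drives several of these genes, fell by 2.66, but its second probe set changed by −0.34 and did not pass (adjusted p = 0.0898, limma over all probe sets). Ifi203, a gene of the DNA-sensing HIN-200 family, rose by 5.42 from 5.11 and 5.01 to 10.54 and 10.42, and Ifit2 by 1.33. B2m, the constant chain of class I molecules, changed by 0.12 and did not pass (chosen after its value was seen). Among 39 proteasome subunits 20 fell and 1 rose, with a median of −0.16, and Psmc5 (−0.54) was the largest fall outside the immunoproteasome.

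Imprinted genes, which are expressed from 1 parental copy, gave 15 of 27 higher and 7 lower. The zinc finger genes Plagl1 (3.49) and Zim1 (2.84), Ddc (2.54), an enzyme of amine synthesis, and Dlk1 (2.40), which encodes a ligand-like surface protein, rose most, and Phlda2 (−4.57), which restrains placental growth, fell most, followed by Magel2 (−0.97). Plagl1 went from 8.83 and 8.98 to 12.40 and 12.38. Chromatin genes were divided, 13 of 35 higher and 16 lower. Smarcd3, a remodelling subunit of heart and muscle, rose by 2.27, and of the Polycomb genes Bmi1 (1.29) and Cbx8 (1.11) rose, whereas Pcgf5 (−2.68) and Cbx7 (−0.96) fell. The stem cell chromatin gene Utf1 fell by 2.68. Of 35 splicing regulators and RNA-binding proteins 14 rose and 15 fell. Rbfox3 (1.63), Mbnl1 (1.32) and Zcchc3 (1.31) rose, and after Lin28a the largest falls were those of Rbpms2, from 11.21 and 11.22 to 9.18 and 9.27, Lin28b (−1.87) and the epithelial splicing factor Esrp1 (−1.40). Lin28b went from 9.31 and 9.31 to 7.43 and 7.46, of which 1.05 was lost between day 3 and day 4.

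MicroRNA genes were measured by probe sets on their hairpins, so the values stand for the transcript that carries the hairpin and not for the mature RNA. Of 46 measured genes of the list 35 had means below 6 on both days, 8 were called higher (17.4%) and 11 lower (23.9%). Both shares lay below the 25.9% higher and 25.6% lower of all genes. Mature sequences were found in RefSeq (GRCm38.p6) for 38 of the 46. Sequences are shown, with the seed (bases 2 to 8) in capitals, for members of the 2 clusters that fell and for both miR-99 genes and let-7e, which were called higher together. The first 4 come from the cluster on chromosome 3 (mature sequences between chr3:127545238 and chr3:127545800, plus strand), the next 3 from the cluster on chromosome 14 (chr14:115043684 to chr14:115044380, plus strand), and the last 3 from chr16:77598940-77598961, chr17:17830194-17830215 and chr17:17830366-17830387, all on the plus strand.
miR-302b-3p: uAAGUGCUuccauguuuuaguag
miR-302d-3p: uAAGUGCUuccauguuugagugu
miR-302c-3p: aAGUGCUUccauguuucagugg
miR-367-3p: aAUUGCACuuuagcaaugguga
miR-18a-5p: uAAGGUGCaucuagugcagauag
miR-19a-3p: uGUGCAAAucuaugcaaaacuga
miR-19b-3p: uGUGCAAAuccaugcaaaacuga
miR-99a-5p: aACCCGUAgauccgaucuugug
miR-99b-5p: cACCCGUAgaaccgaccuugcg
let-7e-5p: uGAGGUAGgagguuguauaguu

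The cluster on chromosome 3, which stem cells transcribe under the control of Oct4 and Sox2, showed the largest falls. Mir302d went from 7.16 and 7.59 to 4.43 and 4.35, a change of −2.99 on the log2 scale (SE 0.13), and Mir302c (−2.79), Mir302a (−2.71) and Mir302b (−2.14) fell with it. The seed was AAGUGCU in miR-302b-3p and miR-302d-3p, AGUGCUU in miR-302c-3p as listed and AUUGCAC in miR-367-3p. Mir367 fell by 1.03, from 4.76 and 4.88 to 3.79 and 3.79. None of the 5 genes had overlapping arrays, which was common. Of all 19938 genes, 7298 did not overlap with day 4 higher and 7266 did not with day 4 lower. All 5 genes of the cluster were below 5 on each day 4 array. The differences in fall between the members were not tested. The cluster on chromosome 14 (miR-17 to miR-92) is a growth-related cluster. Mir18 fell by 1.01 (SE 0.07), Mir19a by 0.86 (SE 0.22, a call lost in 4 alternatives), Mir19b-1 by 0.42 and Mir17 by 0.35, and Mir20a did not pass (−0.06). These falls followed a peak at day 3: Mir18 went from 8.17 and 8.08 through 8.77 and 8.72 on the day 3 arrays to 7.20 and 7.02, and each of the 5 genes was lower at day 4 than at day 3, by 0.79 to 1.64 on the log2 scale. A drop since day 3 was not particular to this cluster, since 16 of the 46 measured genes of the list were called lower in that contrast and 0 higher.

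The microRNA genes that rose were Mir99a (1.11, SE 0.10), Mirlet7e (0.39), Mir145a (0.38), Mir99b (0.35), Mirlet7c-1 (0.33), Mir125b-1 (0.26), Mir218-2 (0.25) and Mir10a (0.25). Mir99a went from 4.96 and 4.72 to 5.85 and 6.05. Several of these genes had been higher at day 3: Mir99a stood 1.96 above day 0 then, Mirlet7e 1.35 and Mir145a 1.37, and they were lower at day 4 than at day 3 (−0.85, −0.96 and −0.99, adjusted p of 0.00176 or below, limma). Mir99a lies beside Mirlet7c-1 on chromosome 16, and Mir99b beside Mirlet7e on chromosome 17, so both pairs of neighbours were called together, and the seeds of miR-99a-5p and miR-99b-5p are the same. Except for Mir99a these rises were 0.39 or less, and when the genes tested were centred, 2 genes were called higher and 21 lower. The number of the list called higher fell from 8 to as few as 3 when 1 array was left out. Without the first day 0 array the calls of Mirlet7e, Mir99b, Mir218-2 and Mir10a were lost. Those of Mirlet7e, Mirlet7c-1, Mir125b-1, Mir218-2 and Mir10a were lost without the second day 0 array. Leaving out the second day 4 array cost the calls of Mirlet7e, Mir99b, Mirlet7c-1, Mir218-2 and Mir10a. Mir142 (−0.15) and Mir196a-1 (−0.21) were also called lower, the former not in 12 of the alternatives and the latter not in 5. Genes that the annotation lists as microRNAs numbered 297 in all, with a median change of −0.07. Of these, 15 were called higher and 56 lower, both below the shares of all genes, 25.9% and 25.6%. Between day 3 and day 4, 6 of the 297 were called higher and 77 lower, against 3068 and 2255 of 18556 protein-coding genes.

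**Figure D5:**
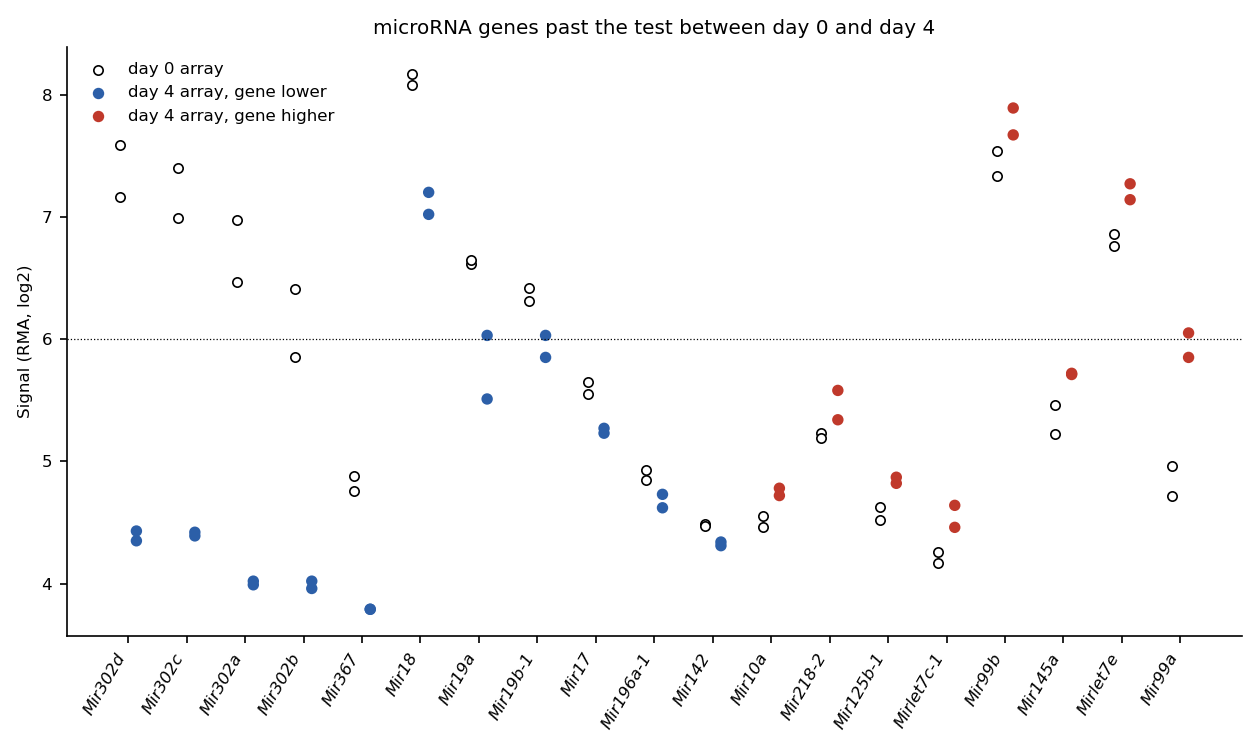
Signal (RMA, log2, vertical axis) of the 19 microRNA genes of the list that passed the test, ordered by their change. Open points are the 2 day 0 arrays and filled points the 2 day 4 arrays, blue where the gene was lower at day 4 and red where higher, and the dotted line marks 6; the 4 Mir302 genes are between 5.85 and 7.59 at day 0 and between 3.96 and 4.43 at day 4.

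Families were taken by symbol, so their members were not picked individually. The families themselves were chosen with earlier results of these data known, and they serve as descriptions. Among transcription factors, the Hox genes gave 22 of 37 higher and 8 lower (after Hoxa5 and Hoxc5, Hoxa4 by 4.08 and Hoxa2 by 4.02, and Hoxd1 by −1.09), forkhead genes 17 of 44 and 8, Sox genes 7 of 19 and 4, and nuclear receptors 18 of 45 and 9. Forkhead genes of the Foxp group rose, Foxp2 by 3.70, Foxp1 by 2.75 and Foxp4 by 2.24. In the T-box family Tbx5 (3.77), Tbx18 (2.73) and Tbx2 (1.61) were the only 3 of 15 that rose and 8 fell, among them Eomes (−4.78), the cardiac gene Tbx20 (−3.32) and Tbx3 (−1.59). Among nuclear receptors, Nr2f1 (3.78) rose beside Rarb and Nr2f2, and Nr4a1 (−2.55), Nr6a1 (−1.78), a repressor of stem cell genes, Pgr (−1.31) and Rxrg (−1.16) fell. Of 347 genes named as Zfp zinc finger proteins 173 rose and 61 fell, mostly by little (median 0.21), and 136 and 92 did when the genes tested were centred. Zfp503 (2.68) rose most and Zfp640 (−3.11, other probe sets −2.97 and −2.45) fell most.

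Protocadherins, adhesion proteins with which neighbouring cells recognise each other, had the largest share of rises among the families chosen. Of 34 measured genes 28 rose and 2 fell, with a median change of 1.05, and 18 rose at least 2-fold. Pcdhb19 went from 4.67 and 5.07 to 8.06 and 7.87, a change of 3.10 (SE 0.14), Pcdhb21 rose by 2.81, Pcdhb18 by 2.66 and Pcdh11x by 2.56, whereas Pcdh7 fell by 1.76 and Pcdh1 by 0.65. Genes of the Pcdhb cluster are close copies of each other, so signal may be shared between their probe sets. Between 27 and 29 of the family were higher under the centrings and cyclic loess. Classical and other cadherins gave 9 of 23 higher and 5 lower, with Cdh10 (3.46) and Cdh8 (3.45) as the largest rises and Cdh1 (−2.25) as the largest fall, and Cdh2, the gene of N-cadherin, did not pass (0.02).

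Families that EBs are not known to use served as a background. Of 1027 olfactory receptor genes 991 were below 6 on both days, 29 were called higher (2.82%) and 33 lower (3.21%), and of 163 vomeronasal receptor genes 3 and 5 were. Olfr893 was the only one of both families called with a change of at least 2-fold (−1.86). The counts of olfactory receptors went to 166 and 6 under median centring and to 4 and 354 when the genes tested were centred, against 58 and 18 with cyclic loess. In the deposited scaling the calls among these genes were thus few and evenly divided.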

How the data were processed

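RNA of 6 EB samples (2 each at days 0, 3 and 4) was measured on Mouse Gene 1.0 ST arrays. The authors normalised the arrays by RMA in Partek, in a version that the sources used here do not give. The deposited values are log2 signals per probe set. Symbols came from GEO's platform annotation: 21789 probe sets had 1 symbol, 1621 several and 12147 none, and those with several or none were left out of the gene counts. Groups followed the titles. All 6 arrays were fitted in 1 model with limma 3.58.1 in R 4.3.3 (lmFit and eBayes, 3 residual and 4.07 prior degrees of freedom), without a replicate block, and p-values were Benjamini-Hochberg adjusted over 19938 genes. The code was tested on simulated data. Gene lists, their members and the families taken by symbol were chosen with earlier results of these data known. Named genes were the 30 largest rises and 30 largest falls, after the exclusions given above, and every called microRNA gene of the list. The others described came from a pool of up to 4 called genes each way and 2 that did not pass per list or family. The text says where a gene falls outside this. RNA-level precision is limited by 2 arrays a day. Alternatives were other centrings, cyclic loess, a test against a 1.2-fold change and the mean of a gene's probe sets. Further ones were the day 0 and day 4 arrays alone, a trended robust fit, a replicate block and leaving out each array. Another kept only genes with a mean of 6 or more over all arrays, so dimmer genes could not lose a call in it.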

Additional observations from a re-analysis of the deposited data

Results flagged for a closer look

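Genes among the largest changes also differed by at least 2-fold between day 3 and day 4, by the limma test of that contrast. Islr (1.73), Tmem255a (1.47), Tcf21 (1.02) and Mgst1 (1.28) were higher at day 4 than at day 3 on the log2 scale, and Hba-x was lower (−1.58). Prtg (−1.16) and Car2 (−1.65) were lower.

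Probe sets outside the gene counts carried signal too. Of the probe sets with several symbols 32.4% were called between day 0 and day 4, and of those with no symbol 29.8%. Of 12147 unnamed probe sets 839 were called at least 2-fold lower and 111 at least 2-fold higher. Of the 839, 736 lay in the run of lowest identifiers (10338001 to 10344950), where they made up 11.1% of 6627 unnamed probe sets, against 103 of the 5520 other unnamed ones (1.87%). Of the 839, 85 were at least 2-fold lower at day 3. What they measure is not named in the tables used here.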

How the results depend on the processing

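The 60 leading genes, picked for large called changes on these arrays, were called in the same direction in all 15 alternatives. The count of higher genes went from 5154 to 2992 and that of lower genes from 5106 to 2861 when tested against a 1.2-fold change. Median centring over all probe sets gave 7132 and 3915, cyclic loess 5707 and 4742, and median centring over the genes tested, an alternative chosen after seeing the data, 3781 and 8521. Leaving out 1 array at a time gave 4501 to 4999 higher and 4486 to 4974 lower genes, and 1116 to 1216 and 884 to 944 of at least 2-fold. Deviations of arrays with the same number correlated by 0.03, 0.06 and 0.08, so the numbers were not taken as pairs, and the fit with the replicate block gave 5143 higher and 5108 lower. With the genes tested centred, which lowers every gene by about 0.15, Atp5pb (−0.14), Dhh (−0.14) and Rpl23 (−0.15) were called lower, although none had been called or had a direction before. Of 525 called genes in the pool for naming 92 lost the call in some alternative, all 92 of them against a 1.2-fold change, and the largest change among them was that of Mir19a (−0.86). The cause was not tested. Another background correction was not run, since scanner files were not used here. Below a signal of 6 fewer changes can be detected.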
